A study of Mus musculus with 6 samples.

Results

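Serpinb10 belongs to the clade B serpins, protease inhibitors that lack a cleaved signal peptide and act mostly inside cells. Of the clade B serpins on the arrays, 9 genes are described here: Serpinb1a, Serpinb2, Serpinb5, Serpinb6a, Serpinb6b, Serpinb7, Serpinb8, Serpinb9 and Serpinb10, out of 19937 genes measured. Each was read by the 1 probe set that the array annotation assigns to that gene alone. The genes were picked by name and with the difference between UNC0638 and DMSO in view, above all that of Serpinb10. Those differences are therefore given as a description. The fit over all genes holds these 9 as well, but no p-value is given for them and nothing is read from a call among them.

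RNA was measured on Affymetrix mouse gene arrays, 3 of UNC0638-treated and 3 of DMSO-treated A9M cells. UNC0638 blocks the catalytic activity of G9a and its relative GLP, enzymes that methylate histone H3, and DMSO is its solvent. Both treatments lasted 5 days. All 6 samples were mouse haematopoietic stem and progenitor cells (HSPCs) transformed by HoxA9 and Meis1, grown in DMEM with serum, IL3, IL6 and SCF, so the controls carry the transforming genes too. The vector or promoter driving HoxA9 and Meis1, the number of clones, the mouse strain and the dose are not stated in the labels. Nothing in the labels says that the 3 samples of a group were separate cultures, so their spread may be technical. The design asks which transcripts depend on the methyltransferase activity of G9a in these cells, and it cannot tell G9a from GLP or direct from indirect effects.

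A serpin offers a protease an exposed reactive loop as bait; the protease cuts it and is then trapped, bound and distorted, on the inhibitor. In myeloid cells, clade B serpins are known for holding in check granule proteases that leak into the cytosol, and in lymphocytes for protecting cells from their own granzymes. The mouse genes lie in 2 clusters, on chromosomes 1 and 13, and have multiplied there beyond the human set. Of the genes described, 5 lie on chromosome 1 (Serpinb5, Serpinb7, Serpinb2, Serpinb10 and Serpinb8, in that order) and 4 on chromosome 13 (Serpinb1a, Serpinb6b, Serpinb9 and Serpinb6a).

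Serpinb2, Serpinb10 and Serpinb8 are immediate neighbours at the end of the chromosome 1 cluster. Their upstream sequences are shown because these adjacent genes differed in their values below. Each is the 250 bases before an annotated transcript start, from RefSeq (GRCm38.p6), on the plus strand and written 5′ to 3′. Capitals mark matches to the motifs that were searched.
Serpinb2, chr1:107511173-107511422: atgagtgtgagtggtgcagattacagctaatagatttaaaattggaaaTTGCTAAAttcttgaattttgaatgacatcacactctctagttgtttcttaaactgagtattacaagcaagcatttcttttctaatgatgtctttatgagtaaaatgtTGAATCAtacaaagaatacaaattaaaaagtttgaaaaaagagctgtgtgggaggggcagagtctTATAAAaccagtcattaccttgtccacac
Serpinb10, chr1:107528753-107529002: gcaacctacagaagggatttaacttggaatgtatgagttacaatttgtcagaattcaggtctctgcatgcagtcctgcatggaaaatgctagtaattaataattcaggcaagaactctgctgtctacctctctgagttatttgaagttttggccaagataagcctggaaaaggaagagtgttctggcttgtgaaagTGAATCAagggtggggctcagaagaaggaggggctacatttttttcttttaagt
Serpinb8, chr1:107589756-107590005: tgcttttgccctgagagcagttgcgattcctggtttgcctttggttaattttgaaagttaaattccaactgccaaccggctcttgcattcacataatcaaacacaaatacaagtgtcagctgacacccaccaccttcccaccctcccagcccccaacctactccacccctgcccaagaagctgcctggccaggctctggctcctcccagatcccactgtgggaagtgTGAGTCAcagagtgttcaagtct

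The motifs, searched on both strands, were TATAAA (the box of that name), GAGGAAGT (the myeloid factor PU.1), the interferon-stimulated response element, TTGCNNAA (C/EBP), TGAGTCA (AP-1), its looser form TGANTCA, which overlaps it, TGATTNAT (Hox with Pbx) and TGACAG (Meis). In the same order they occur in 12.4%, 2.44%, 2.98%, 9.56%, 4.46%, 6.75%, 2.82% and 15.9% of the 32851 RefSeq windows of this length. The Serpinb10 window held 1 match, to TGANTCA, 54 to 48 bases before the start. The Serpinb8 window held TGAGTCA 23 to 17 bases before its start. The Serpinb2 window held TGANTCA 94 to 88 bases, TATAAA 29 to 24 bases and TTGCNNAA 202 to 195 bases before its start. The Serpinb10 and Serpinb2 windows shown contained 0 CG dinucleotides and the Serpinb8 window 2, against a median of 6 over all windows. A second annotated Serpinb2 start, whose window is not shown, had 3 CG dinucleotides. Before that start, TGANTCA lay at 181 to 175 bases, TATAAA at 116 to 111 and TTGCNNAA at 19 to 12. A match is a string of letters in the window and does not show binding.

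Serpinb10, also called bomapin and known in humans as a serpin of haematopoietic cells found in the nucleus, was 3.82-fold brighter after UNC0638. Its intensities were 161, 137 and 142 in UNC0638-treated cells, against 35.7, 37.6 and 41.9 in DMSO-treated cells. Every UNC0638 array lay above every DMSO array, and the lowest UNC0638 value was 3.26 times the highest DMSO value. Means were 147 ± 12.7 in UNC0638 and 38.4 ± 3.21 in DMSO (SD, n = 3 each). The DMSO mean lay below the median of all probe sets on every DMSO array (50.4 to 52.5). The file has no detection call, so how much of the DMSO signal is background is not known. The fold is a ratio of intensities, and that of the RNA itself is uncertain to that extent. After adding a pseudocount of 16 to each intensity, the log2 difference was 1.58 (SE 0.090, 95% interval 1.38 to 1.78, limma), the fourth highest of all genes measured (rank 4). Replicates scattered by 8.67% of the mean in UNC0638 and 8.37% in DMSO. The size depends on the pseudocount, with log2 differences of 1.91 at a pseudocount of 1 and 1.04 at 64. It stayed between 1.52 and 1.63 when any 1 array was left out.

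Its 2 neighbours showed no such separation. Serpinb2, or PAI-2, inhibits the plasminogen activators urokinase and tissue-type activator and is known as strongly inducible in activated macrophages. It had intensities of 144, 107 and 182 in UNC0638 and 215, 155 and 167 in DMSO. The groups overlapped, and the UNC0638 arrays spread by 25.9% of their mean. The log2 difference was -0.30 (SE 0.18, 95% interval -0.71 to 0.11), with values from -0.47 without UNC0638 3 to -0.12 without UNC0638 2. Serpinb8, whose human counterpart inhibits the convertase furin in vitro, was at 35.3, 38.7 and 37.9 in UNC0638 and 38.1, 38.6 and 38.3 in DMSO. Its log2 difference was -0.028 (SE 0.073, 95% interval -0.19 to 0.14). A doubling of its DMSO mean would be 0.77 on this scale, outside that interval, which describes the spread of these arrays only.

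**Figure D1:**
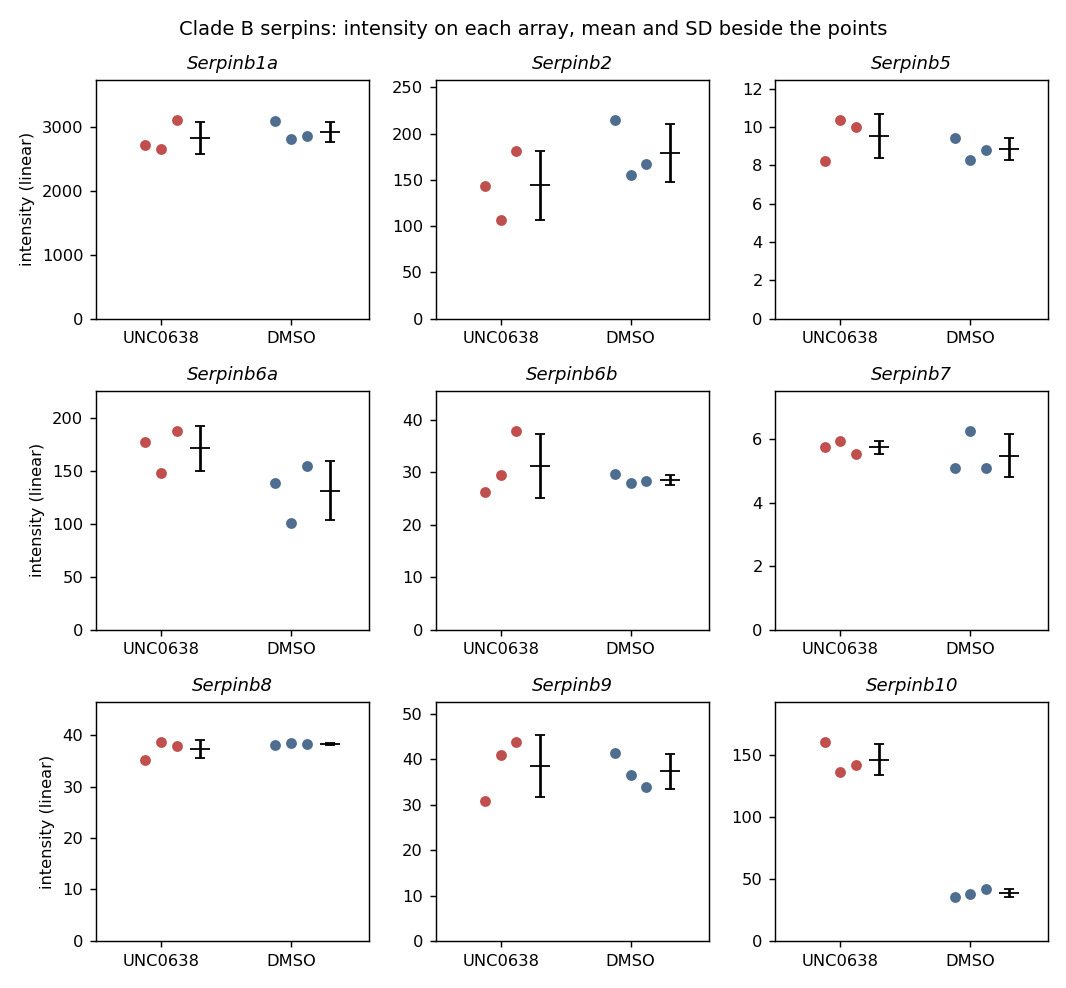
Intensity (linear scale, each panel with its own axis from 0) of the 9 clade B serpins on the 3 UNC0638 and 3 DMSO arrays; points are arrays, and the bar beside them is the mean with its SD. The groups are apart for Serpinb10 (137 to 161 in UNC0638, 35.7 to 41.9 in DMSO) and overlap in the other 8 panels.

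The other chromosome 1 genes were dim. Serpinb5, or maspin, is a clade B serpin of epithelia that does not inhibit proteases. It read 8.25, 10.4 and 10.03 in UNC0638 and 9.44, 8.27 and 8.82 in DMSO, a log2 difference of 0.040 (95% interval -0.13 to 0.21). Serpinb7, or megsin, first known from kidney mesangial cells, read 5.77, 5.94 and 5.53 in UNC0638 and 5.09, 6.28 and 5.11 in DMSO. Its log2 difference was 0.018 (95% interval -0.15 to 0.18), and -0.012 with each array centred on its median. Both lay below the lower quartile of all probe sets on all 6 arrays, and the file has no detection call, so whether either is above background is not known. A doubling of the DMSO intensity would be 0.44 for Serpinb5 and 0.33 for Serpinb7 on the log2 scale used. Of the epithelial markers fixed for the check of cell types, 0 of 10 passed the test, beside 0.672% of all genes. At an unadjusted limma p under 0.05 there were 0, beside 12.7% of all genes. The 10 summed to 615 to 724 in UNC0638 and 622 to 647 in DMSO.

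On chromosome 13, Serpinb1a encodes the inhibitor of the neutrophil granule proteases elastase, cathepsin G and proteinase 3. Its intensities were 2730, 2662 and 3123 in UNC0638 and 3107, 2817 and 2860 in DMSO. The groups overlapped, with a log2 difference of -0.047 (SE 0.091, 95% interval -0.25 to 0.16). The interval, which describes the spread of these arrays only, reaches neither a doubling nor a halving (1.00 and -0.99 on this scale). The Serpinb1a probe set was brighter than 98.1% of all probe sets in mean intensity, so the pseudocount hardly alters its value.

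Serpinb6a, the counterpart of human SERPINB6, which inhibits cathepsin G and trypsin-like proteases, had the highest difference after Serpinb10. It read 178, 148 and 188 in UNC0638 and 139, 101 and 155 in DMSO. The lowest UNC0638 array lay below the highest DMSO array. Its log2 difference of 0.36 (SE 0.15, 95% interval 0.019 to 0.69) was 0.20 without DMSO 2 and 0.47 without DMSO 3.

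Serpinb6b, one of the extra rodent copies of that gene, was at 26.2, 29.4 and 37.9 in UNC0638 and 29.7, 27.9 and 28.2 in DMSO. All 3 DMSO values lay within the UNC0638 range, and the log2 difference was 0.073 (95% interval -0.16 to 0.30). Serpinb9, the mouse inhibitor of granzyme B that guards cytotoxic lymphocytes, was at 30.8, 40.9 and 43.9 in UNC0638 and 41.5, 36.6 and 34.0 in DMSO. Its groups overlapped too, with a log2 difference of 0.025 (95% interval -0.23 to 0.28). Both values turned sign without UNC0638 3, to -0.027 for Serpinb6b and -0.046 for Serpinb9. That of Serpinb9 was also below 0 without UNC0638 2 (-0.0093) and without DMSO 3 (-0.020). With quantile normalization and median centring it was -0.0033 and -0.0038. Serpinb6b and Serpinb9 have close copies in the same cluster whose RNA the probes could share, so their values are uncertain to that extent. The same limit holds for Serpinb1a and Serpinb6a above and for Serpinb9c and Serpinb9e below.

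In the fit over all genes, 1 of the 9, Serpinb10, lay past the adjusted limma p of 0.05, beside 0.672% of all genes (0.371% upward). Its groups were also the 1 pair among the 9 that did not overlap, a pattern seen in 17% of all genes (9.59% with UNC0638 higher, 7.4% with UNC0638 lower). Because the genes were chosen with this contrast in view, these counts are no test of them and nothing is read from them. The differences of the other 8 ran from -0.30 to 0.36, and all 8 intervals lay inside -0.71 to 0.69. The median of the 9 was 0.025, beside 0.012 over all genes.

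Of the other clade B serpins, 15 of 19 listed genes were measured alone by a probe set, and 0 passed the test (3 had an unadjusted limma p under 0.05, as did 12.7% of all genes). Of these, 13 had differences above 0, the median was 0.10, and the range ran from -0.011 to 0.31. In 3 of the 15, against 9.59% of all genes, every UNC0638 array lay above every DMSO array. Serpinb9e, a rodent copy of Serpinb9, had the largest difference, at 44.4, 53.5 and 44.3 in UNC0638 and 36.1, 32.5 and 36.4 in DMSO (log2 difference 0.31, SE 0.088, adjusted p = 0.173, limma). The other 2, named after their values were seen, were Serpinb9c at 0.28 (adjusted p = 0.256) and Serpinb12 at 0.22 (adjusted p = 0.383). Serpinb12 was dim, averaging 15.1 in UNC0638 and 10.6 in DMSO, where the lower quartiles of all probe sets were 20.9 to 22.8. Serpinb9c averaged 23.8 in UNC0638 and 16.6 in DMSO, so its DMSO mean lay below those quartiles too.

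Along the chromosomes the 8 nearest measured genes on each side of both clusters were taken as flanks. Of these 32 genes 0 passed the test with limma, and 5 had an unadjusted p under 0.05, as did 12.7% of all genes. On chromosome 1 the nearest measured genes were Vps4b, at the Serpinb5 end of the cluster, and Cdh7, at the Serpinb8 end. Vps4b was at a log2 difference of 0.25 and Cdh7, named after its values were seen, at -0.0017 (adjusted p = 0.548 and 0.996, limma). On the same chromosome the anti-apoptotic gene Bcl2 was at 0.12 (adjusted p = 0.665). The largest difference there was that of Nifk, a nucleolar protein gene, with intensities of 480.4, 483 and 471 in UNC0638 and 690, 671 and 551 in DMSO (log2 difference -0.40, SE 0.098, adjusted p = 0.129). On chromosome 13 it was that of Gmds, an enzyme of GDP-fucose synthesis, at 195, 161 and 161 in UNC0638 and 264, 262 and 220 in DMSO (log2 difference -0.49, SE 0.11, adjusted p = 0.0929). The flanks had medians of 0.045 on chromosome 1 and -0.0079 on chromosome 13.

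**Figure D2:**
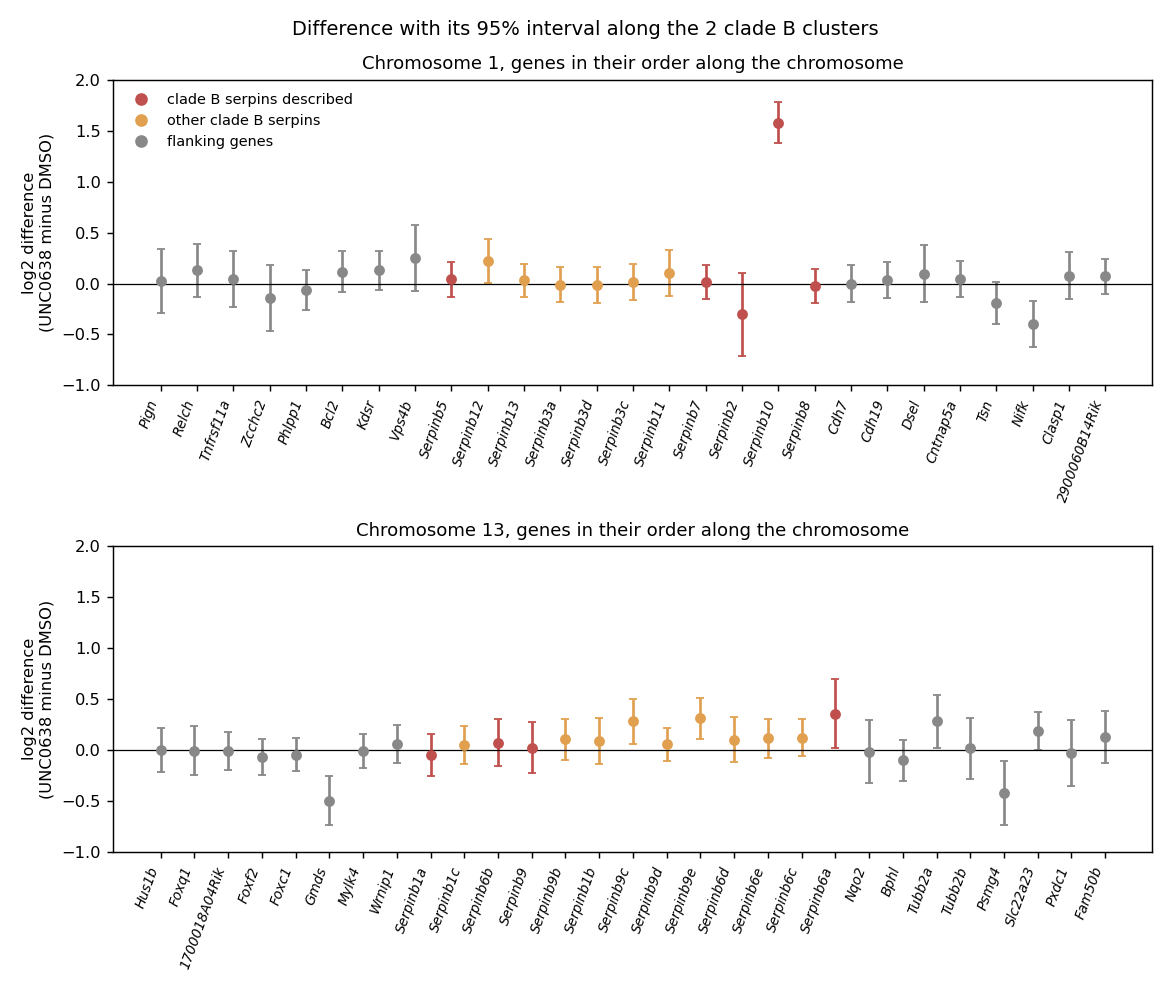
Log2 difference (UNC0638 minus DMSO, y axis) with its 95% interval for the clade B serpins and their flanking genes, placed in their order along chromosomes 1 and 13 (x axis, not to distance). Serpinb10 stands at 1.58 between Serpinb2 at -0.30 and Serpinb8 at -0.028.

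Serpins of other clades, which are mostly secreted, were compared next. Of 36 listed, 23 were measured alone. Of these, 0 passed the test and 0 reached an unadjusted limma p of 0.05, beside 0.672% and 12.7% of all genes. In 4 of the 23, against 9.59% of all genes, every UNC0638 array lay above every DMSO array. The list had a median of 0.052 on the log2 scale, with Serpine3 highest at 0.22 (adjusted p = 0.545).

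Families of proteases, some members of which clade B serpins are known to bind, were read in the same fit. The lists hold whole families, not only known targets, and were chosen with earlier results of these data known. Of 4 neutrophil serine proteases, among them the known targets of Serpinb1a, 0 passed the test, beside 0.672% of all genes. At an unadjusted limma p under 0.05 there were 0, beside 12.7% of all genes. All 4 lay below 0 with a median log2 difference of -0.11. The largest difference was that of proteinase 3, Prtn3, with 2640, 2529 and 2202 in UNC0638 and 2854, 2855 and 2518 in DMSO (log2 difference -0.16, adjusted p = 0.583). Elane, which encodes elastase, was at -0.045 (95% interval -0.29 to 0.20) and Ctsg, which encodes cathepsin G, at -0.10 (95% interval -0.30 to 0.088).

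Among 10 granzymes 1 rose, against 0.371% of all genes: Gzmb, which encodes granzyme B, the target of Serpinb9. It had intensities of 609, 531 and 545 in UNC0638 and 400.2, 375 and 382 in DMSO, groups that did not overlap. The log2 difference was 0.52 (SE 0.083, adjusted p = 0.0381, limma), and higher in 3 of 3 UNC0638 arrays. The call was lost in 10 of 15 other settings, including every fit that left out 1 of the 6 arrays (UNC0638 1, 2 or 3, DMSO 1, 2 or 3), and the adjusted p ran from 0.0326 to 0.151. The median of the granzymes was 0.0061, and the T and NK cell markers, cells that make granzymes, had 0 of 11 genes past the test. Of these 11 markers 8 lay above 0, and 2 had an unadjusted limma p under 0.05, against 12.7% of all genes. In 3 (Cd3g, Cd8a and Cd4, named after their values were seen), against 9.59% of all genes, every UNC0638 array lay above every DMSO array. The 11 markers summed to 362 to 429 in UNC0638 and 340 to 382 in DMSO.

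Among 9 measured proteases of mast cells and basophils 2 rose and 0 fell, against 0.371% and 0.301% of all genes, and the median was 0.30. Of the 9, 5 had an unadjusted limma p under 0.05, against 12.7% of all genes. All UNC0638 arrays lay above all DMSO arrays in 5 and below in 1, against 9.59% and 7.4% of all genes. Mcpt2 at 0.77 and Mcpt8 at 0.43, named after their values were seen, were not called (adjusted p = 0.0814 and 0.0568, limma). Cma1, a chymase, was at 405, 406 and 365 in UNC0638 and 206, 236 and 248 in DMSO (log2 difference 0.73, SE 0.093, adjusted p = 0.0181). Tpsb2, a tryptase, was at 546, 553 and 495 in UNC0638 and 317, 307 and 348 in DMSO (log2 difference 0.69, SE 0.085, adjusted p = 0.0164). In both genes every UNC0638 array lay above every DMSO array. Cma1 lost its call without UNC0638 1, UNC0638 2 or DMSO 2 (adjusted p = 0.0827, 0.0943 and 0.0576). Tpsb2 lost its call without UNC0638 1, UNC0638 2, DMSO 1 or DMSO 2 (0.0827, 0.0908, 0.0528 and 0.0636).

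Of 14 lysosomal proteases, cathepsins and legumain, some of which clade B serpins bind, 0 passed the test and 13 lay above 0. These 14 genes held 6 with an unadjusted limma p under 0.05, against 12.7% of all genes. Their median was 0.22, and Ctsh, an aminopeptidase, was at 613, 742 and 713 in UNC0638 and 546, 421 and 465 in DMSO (log2 difference 0.52, SE 0.12, adjusted p = 0.101). Of 8 genes of plasminogen activation, the system that Serpinb2 acts on, 0 passed and 1 had an unadjusted p under 0.05. The largest difference was that of the urokinase receptor Plaur, at 0.42 (adjusted p = 0.138), and urokinase itself, Plau, was at 0.074 (adjusted p = 0.917). Proprotein convertases had 0 of 7 and caspases 0 of 8 genes past the test, with 0 at an unadjusted p under 0.05 in both. Their largest differences were those of Pcsk1 at -0.11 and Casp1 at 0.13, and Furin was at 0.042.

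**Figure D3:**
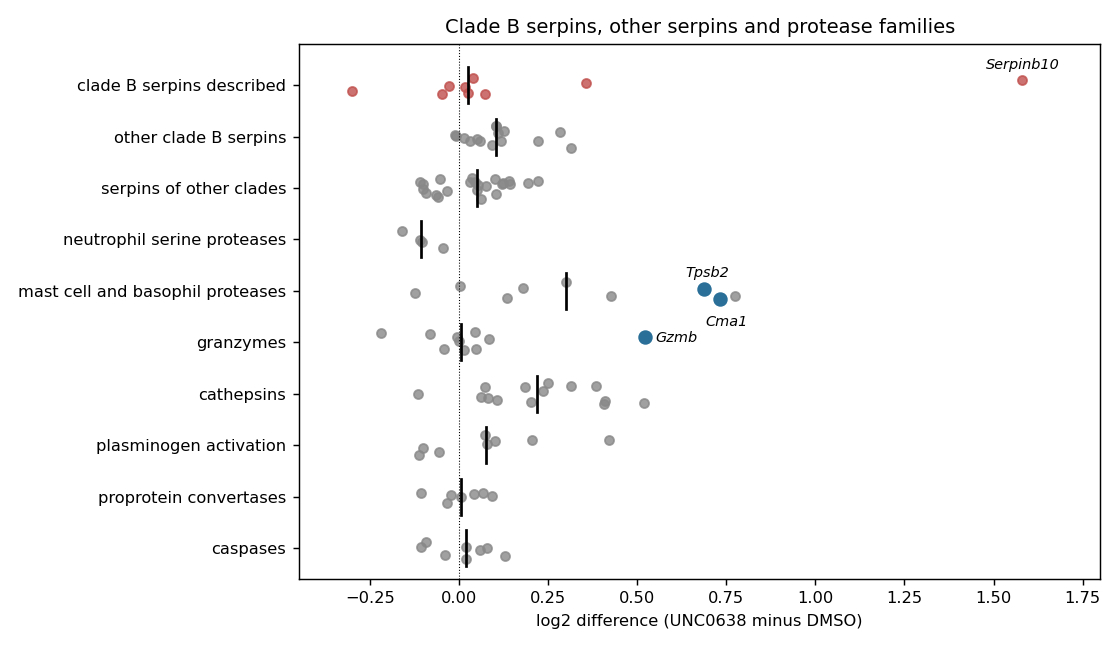
Log2 difference (UNC0638 minus DMSO, x axis) of each gene, 1 point per gene, in the 9 clade B serpins, the other serpins and the protease families (y axis, with vertical scatter for legibility). Black bars are medians, blue points passed an adjusted limma p of 0.05, and calls are not marked in the first list, which was chosen on this contrast; Serpinb10 is the rightmost point at 1.58, and Gzmb, Tpsb2 and Cma1 stand at 0.52, 0.69 and 0.73.

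Markers of the labelled cells were present: all 10 listed genes of myeloid progenitors were measured, Mpo at a mean of 6322 in UNC0638 and 6031 in DMSO and Kit at 364 in UNC0638 and 351 in DMSO. They summed to 17343 to 17492 in UNC0638 and 15691 to 16217 in DMSO, with 0 past the test. In 3 of the 10, against 9.59% of all genes, every UNC0638 array lay above every DMSO array. The largest difference among them was that of Cd33 (log2 difference 0.45, adjusted p = 0.055, limma), which was called with quantile normalization, a trended robust prior or array weights (adjusted p = 0.0381, 0.0341 and 0.0486). Some markers of more mature myeloid cells were higher in UNC0638, as Serpinb10 was. In 8 of 12 neutrophil markers and 5 of 9 macrophage markers, against 9.59% of all genes, every UNC0638 array lay above every DMSO array. The share of all genes that rose was 0.371%. Of the 12 neutrophil markers 3 rose (Cxcr2 at 1.23, Ltf at 0.77 and, named after its value was seen, Fcnb at 0.48), and the 12 summed to 17044 to 20176 in UNC0638 and 15090 to 15755 in DMSO. Of the 9 macrophage markers 1 rose (Itgax at 0.77), while the complement genes C1qa, C1qb and C1qc lay at 2.9e-05, -0.023 and 0.067 on the log2 scale, and the 9 summed to 6251 to 6757 in UNC0638 and 4287 to 5302 in DMSO. Of 8 mast cell markers the same Cma1 and Tpsb2 rose, and the 8 summed to 7143 to 8000 in UNC0638 and 6253 to 7509 in DMSO. Hdc, the histamine-forming enzyme in the same list, named after its values were seen, was lower in every UNC0638 array, at 876, 784 and 868 in UNC0638 and 1255, 1062 and 1095 in DMSO (log2 difference -0.42, adjusted p = 0.0983, limma). Cxcr2 and Itgax lost their calls without UNC0638 1 (adjusted p = 0.0534 and 0.0682, limma). Ltf lost its call without UNC0638 1, 2 or 3 or DMSO 1 or 3 (0.082 to 0.149), with median centring (0.0524) and with a pseudocount of 64 (0.0921), and Fcnb lost its call in every fit that left out 1 array (adjusted p up to 0.164 over all settings). The part of these cells in the values of Serpinb10, Gzmb, Cma1 and Tpsb2 was not tested. In such bulk RNA, more cells of a type and more RNA per cell cannot be told apart.

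Of the remaining marker lists, 0 genes passed in B cells (0 of 5, Cd79b at 0.35), megakaryocytes (0 of 5, Pf4 at -0.66) and erythroid cells (0 of 4, Epor at 0.18). At an unadjusted limma p under 0.05 these lists held 1, 1 and 0 genes, beside 12.7% of all genes. The largest difference among T and NK cell markers was that of Cd3g, and among epithelial markers that of Krt8, both 0.23.

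The 5 genes whose pattern over the 6 arrays was most like that of Serpinb10 were found by Pearson's r of log2 values among all genes. The measure holds the difference between the groups, so such genes differ between UNC0638 and DMSO by construction, and no test is drawn from it. They were Slc18a1, a vesicular monoamine transporter (r = 0.995), Zfp873, a zinc finger gene (0.991), Ptafr, the receptor of platelet-activating factor (0.987), Gpx3, a secreted glutathione peroxidase (0.987), and Cd180, a Toll-like receptor relative (0.987). Slc18a1 was at 156, 145 and 145 in UNC0638 and 81.8, 84.2 and 80.2 in DMSO. Ptafr was at 363, 314 and 319 in UNC0638 and 159, 190 and 188 in DMSO. In these genes, as in Serpinb10, the groups stood apart with little scatter within them, and the choice by r favours both traits. Their log2 differences, from 0.46 for Zfp873 to 1.08 for Gpx3, were smaller than that of Serpinb10.

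**Figure D4:**
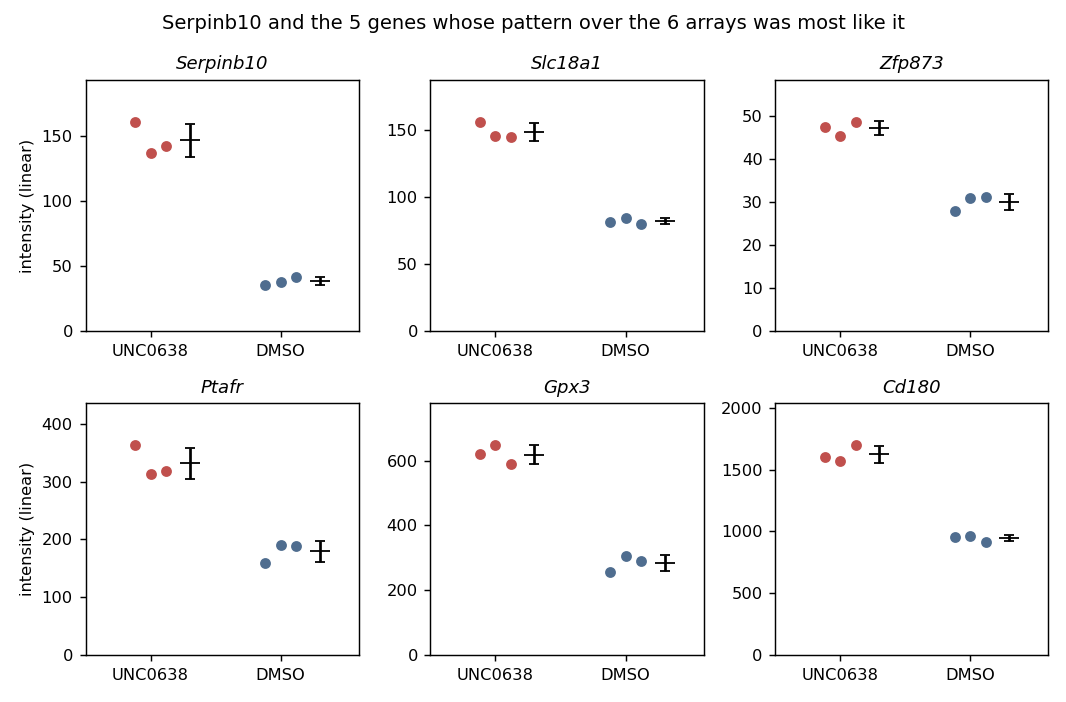
Intensity (linear, each panel with its own axis from 0) of Serpinb10 and of the 5 genes most like it, on the 3 UNC0638 and 3 DMSO arrays, with mean and SD beside the points. All 6 panels show groups apart; mean UNC0638 over DMSO intensity is 3.82 for Serpinb10 and 1.57 to 2.18 for the others.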

How the data were processed

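The authors deposited processed intensities, 1 value for every probe set on every array, of biotin-labelled cRNA, per the labels' protocols. How they summarised, background-corrected and scaled them is not stated in the labels or the file header. Intensities ran from 2.74 to 19527, on a linear scale, with array medians of 50.4 to 54.9. Of 34760 probe sets, 21640 name 1 gene, 1321 several and 11799 none. The brightest single-gene probe set was kept per gene; each of the 9 serpins had 1.

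Values were tested as log2(intensity + 16) with limma 3.58.1 (R 4.3.3; prior of 4.47 degrees of freedom), group alone, over 19937 genes, with Benjamini-Hochberg adjustment at 0.05. The pseudocount understates changes of dim genes. Intervals are 95% from the same fit. The number of arrays limits the precision. The fit was tested on simulated data. Gene order and upstream windows (8 of the 9 serpins matched) came from RefSeq tables of GRCm38.p6; the annotation names no build.

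The serpins and all lists were chosen with earlier results of these data known. Named genes are the 9 serpins, up to 2 rises and 2 falls per list (or the gene with the largest difference), and the 5 genes most like Serpinb10. Elane, Ctsg, Plau, Furin, Bcl2, Vps4b, Mpo, Kit, C1qa, C1qb and C1qc were added for their roles, after values were seen. Figures used matplotlib 3.10.9.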

Additional observations from a re-analysis of the deposited data

How the results depend on the processing

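Of the 9 serpins, 1 lay past the threshold in every setting, from which nothing is read, since they were chosen on this contrast. Leaving out the dimmest 40% of genes removed 5 of the 9 serpins. Over all genes, 134 were called, against 49 with a pseudocount of 64, 18 at a threshold of 0.01 and 10 to 69 with 1 array left out. Of the other serpins and the proteases, 3 were called, against 5 with a trended robust prior, 0 at 0.01 and 0 to 2 with 1 array left out (0 without UNC0638 1, UNC0638 2 or DMSO 2). No flanking gene was called in any setting. With the replicate block, 73 genes in all, 1 clade B serpin and 0 of the other serpins and proteases were called; Gzmb, Cma1, Tpsb2 and Ltf had adjusted p = 0.0754, 0.0579, 0.0623 and 0.0754. Same-numbered arrays deviated together with correlations of -0.066, 0.11 and 0.017, so the numbers were not taken as pairs. The cause of these shifts was not tested. Dim probe sets limit what can be seen of Serpinb5 and Serpinb7.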

Other observations

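Across the clade B upstream windows, the looser AP-1 string TGANTCA was found in 5 of 5 described genes on chromosome 1 and in 2 of the 6 other clade B genes there. It was found in 0 of 3 described genes and 0 of 12 others on chromosome 13, against 6.75% of all windows. The stricter TGAGTCA, added after the first search, was in Serpinb7 and Serpinb8. The Hox with Pbx string TGATTNAT was in 0 of 5 described genes on chromosome 1 and in 4 of the 6 others, against 2.82% of all windows. The interferon-stimulated response element was in 0 of 5 described genes and 0 of 6 others on chromosome 1 and in Serpinb9 and Serpinb6a. A gene was counted if at least 1 of its windows held a string, whereas the percentages are of single windows. Tandem copies share sequence, so these genes are not independent, and no test was made. Serpinb7, Serpinb10 and the first of 2 Serpinb2 starts had windows with 0 CG dinucleotides, whereas 1 of the 2 Serpinb6a windows had 20.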
